A study of Mus musculus with 6 samples.

Results

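The genes described here are 10 that cells switch on when the kinase ERK is active: the phosphatase genes Dusp4, Dusp5 and Dusp6, the Sprouty genes Spry1, Spry2 and Spry4, the Spred genes Spred1 and Spred2, and the transcription factor genes Etv4 and Etv5. They were chosen by symbol, with earlier results of these data known. Each of the 10 had a single row with 1 gene symbol in the deposited table, which held 9490 genes in all. The study compared stem-like cancer cells grown from the prostates of TRAMP mice, animals in which the probasin promoter drives a viral T antigen in prostate epithelium. The 3 TPIN samples came from prostates with intraepithelial neoplasia, of mice aged 10 to 11 weeks, and the 3 TNE samples came from mice with neuroendocrine tumours, whose age the labels do not give. Every culture had serum-free DMEM F12 with EGF and FGF2. No array came from cells kept without these factors, so the values are levels in their presence and not measured responses to them. The labels do not say whether the 3 samples of a group were separate mice or separate cultures, though each title carries its own number. The spread behind each p-value is that of these 6 samples, and whether it holds differences between mice is not known.

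EGF and FGF2 bind receptor tyrosine kinases, which load RAS with GTP and so start a chain of kinases from RAF through MEK to ERK. ERK in the nucleus induces early genes such as Fos and Egr1, and with them genes whose products turn the chain down again. Dual-specificity phosphatases remove phosphate from ERK itself, Sprouty and Spred proteins act further up, at RAS and RAF, and Etv4 and Etv5 are ETS-family factors that carry the signal on to other genes. RNA levels of this set are often read as a gauge of ERK output, but protein phosphorylation was not measured on these arrays.

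Array medians lay between 8.82 and 9.10 on the log2 scale, and arrays of the 2 groups correlated at 0.549 to 0.733 over all rows, below the 0.842 to 0.905 among TPIN arrays and 0.826 to 0.917 among TNE arrays. TNE array 3 had the lowest median. The labels' free-text description gives intraepithelial neoplasia for all 6 samples, while the titles and cell type labels separate the groups, and these were followed. Of 16 prostate epithelial markers only Krt8 and Krt18 had a row, with list means of 8.06 to 8.14 on the TPIN arrays and 7.47 to 7.70 on the TNE arrays, so the epithelial label was hardly checked here. Of 7 measured neuroendocrine markers 4 rose in TNE, led by Uchl1, a neuronal ubiquitin hydrolase (6.35-fold higher), Syt1 (9.67-fold) and Elavl4 (12.7-fold). The calls of Syt1 and Elavl4 were lost without any 1 of the TPIN arrays. The neuronal enolase Eno2, named with its values known, had a difference of -0.79 with every TNE array below every TPIN array (limma adjusted p = 0.110), and Ncam1, named likewise, one of 0.04.

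All 10 feedback genes had a lower mean in TNE than in TPIN, and for 3 of them the fall passed the test: Spred1 (2.43-fold lower), Dusp5 (2.07-fold) and Spry1 (3.70-fold). The other 7 did not pass, and none rose. The TNE means of Dusp5 (7.95) and Etv4 (7.99) lay below 8.09, so the sizes of their falls are uncertain. Passing means an adjusted p below 0.05 in limma, a linear model whose error borrows strength across genes, with Benjamini-Hochberg adjustment over all 9490 genes. By that rule 10.2% of all genes were lower in TNE and 10.3% higher, against 30% and 0% of these 10. A mean below that of TPIN was found for 50.8% of all genes and 100% of the feedback genes. The median log2 difference, TNE minus TPIN, was -0.91 over the feedback genes, from -1.89 for Spry1 to -0.38 for Etv5, and -0.02 over all genes. At an unadjusted p under 0.05, 4 of the 10 were lower, against 18.8% of all genes. The groups were fully separate for 2 of the 10, Spred1 and Dusp5, while 20.5% of all genes had every TNE array below every TPIN array. These 3 calls rest on single arrays: the count was 0 without TNE array 2, 1 without TPIN array 2, TPIN array 3 or TNE array 3, 2 without TPIN array 1 and 4 without TNE array 1.

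**Figure D1:**
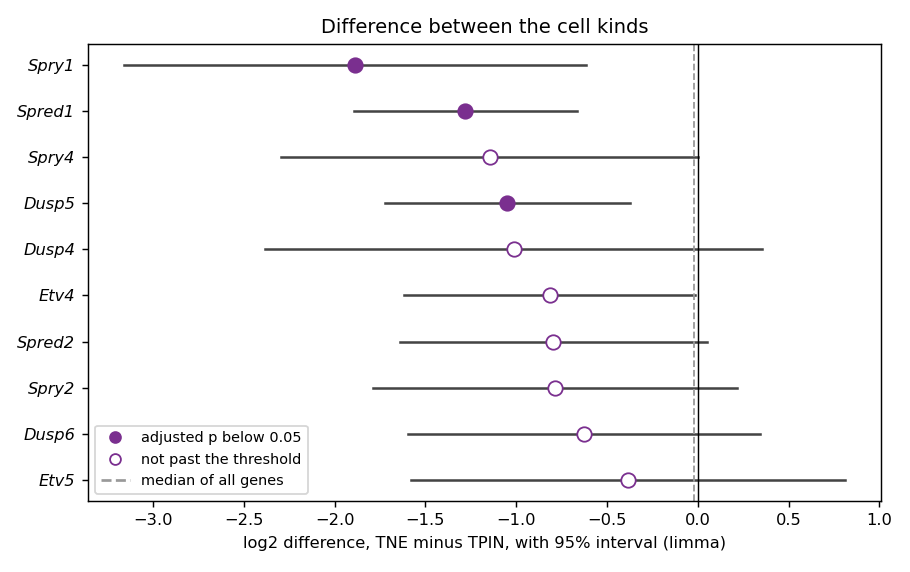
Log2 difference in RMA expression, TNE minus TPIN, for each of the 10 feedback genes (points), with 95% intervals from limma over 3 arrays a group (lines); filled points passed an adjusted p of 0.05, and the dashed line is the median of all genes. All points lie left of 0, from -1.89 for Spry1 to -0.38 for Etv5, and only Spred1, Dusp5 and Spry1 are filled.

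The promoters of the 3 genes that passed are shown because binding sites of ERK-regulated factors often lie close to a start site. Each is the 250 bases before the RefSeq gene start in GRCm38.p6, all on the plus strand: chr2:117120821-117121070 for Spred1, chr19:53528895-53529144 for Dusp5 and chr3:37639697-37639946 for Spry1. Capitals mark matches, on either strand, to an ETS core (CGGAAG), a CArG box (the site of serum response factor), an AP-1 site (TGANTCA), a CRE (TGACGTCA) or a GC box (GGGCGG).
Spred1: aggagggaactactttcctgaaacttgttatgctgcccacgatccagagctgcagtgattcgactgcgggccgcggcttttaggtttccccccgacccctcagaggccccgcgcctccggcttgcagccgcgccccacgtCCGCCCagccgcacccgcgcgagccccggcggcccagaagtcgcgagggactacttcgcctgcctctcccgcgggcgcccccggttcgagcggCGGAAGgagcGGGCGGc
Dusp5: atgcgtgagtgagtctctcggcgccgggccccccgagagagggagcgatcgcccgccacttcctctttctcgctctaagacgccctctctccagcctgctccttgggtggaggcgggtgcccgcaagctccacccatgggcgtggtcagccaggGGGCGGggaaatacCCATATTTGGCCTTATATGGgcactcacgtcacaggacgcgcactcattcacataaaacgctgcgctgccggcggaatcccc
Spry1: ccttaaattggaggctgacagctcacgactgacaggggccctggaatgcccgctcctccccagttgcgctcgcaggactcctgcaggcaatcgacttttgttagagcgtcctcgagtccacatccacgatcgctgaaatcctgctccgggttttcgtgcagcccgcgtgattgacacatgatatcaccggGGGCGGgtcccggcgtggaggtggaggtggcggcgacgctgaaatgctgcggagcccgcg
The Dusp5 window held 2 CArG boxes side by side, which began 82 and 72 bases before the start, and 1.47% of all 32851 windows in the RefSeq table held at least 1. The Spred1 window held 1 ETS core, 17 bases before the start, and 13.6% of all windows held one. The Spry1 window held 1 GC box, found in 32.7% of windows, and none of the other motifs. The windows of Dusp6 and Spred2 held 1 ETS core each, the latter overlapping a GC box. Neither AP-1 (6.75% of windows) nor CRE (1.55%) was matched in the windows of the 7 feedback genes that were searched. No window was searched for Dusp4, Spry4 or Etv4. A match says that the letters are there and not that a factor binds.

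The Spred genes encode membrane-bound inhibitors that recruit neurofibromin, a RAS-GTPase activator, and so keep RAS inactive. Spred1 was at 11.13, 11.17 and 11.49 on TPIN arrays 1 to 3 and at 10.14, 9.77 and 10.04 on TNE arrays 1 to 3. Every TNE array lay below every TPIN array, by at least 0.997, and the 3 arrays of each kind lay close together (11.26 ± 0.20 in TPIN and 9.98 ± 0.19 in TNE, SD, n = 3). The log2 difference was -1.28 (SE 0.27, limma adjusted p = 0.0153), the smallest p among the 10 genes. Only leaving out TNE array 2 ended the call (difference -1.18, adjusted p = 0.0757). Spred2 was at 10.63, 10.68 and 9.86 in TPIN and at 9.87, 9.04 and 9.87 in TNE. TPIN array 3 lay level with TNE arrays 1 and 3, so the groups overlapped, by 0.01. Its difference of -0.80 (95% interval -1.64 to 0.05, limma adjusted p = 0.147) did not pass. The difference of the paralog Spred3, a gene picked with its values known, was -0.63 (limma adjusted p = 0.232).

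The 3 phosphatases differ in place: Dusp6 binds and dephosphorylates ERK in the cytoplasm, Dusp4 and Dusp5 in the nucleus, and Dusp5 also anchors ERK there. Dusp5 was at 8.96, 8.93 and 9.11 on the TPIN arrays, a span of 0.18, and at 8.34, 7.94 and 7.57 on the TNE arrays. All TNE values were lower, by at least 0.59. Their mean of 7.95 lay below 8.09, so the size of the fall is uncertain. The log2 difference was -1.05 (SE 0.29, limma adjusted p = 0.0414), and the call was lost without any 1 array other than TNE array 1 (adjusted p = 0.0580 to 0.131). Dusp4 was at 10.19, 9.61 and 10.40 in TPIN and at 9.15, 7.76 and 10.24 in TNE. Here TNE array 3 lay within the TPIN range and TNE array 2 far below it, a span of 2.48 within TNE, the widest among the 10 genes. The difference of -1.01 was about the size of that of Dusp5, but its interval ran from -2.38 to 0.36 and it did not pass (limma adjusted p = 0.236). Dusp6, a widely used gauge of ERK activity, was at 11.73, 10.87 and 11.52 in TPIN and at 11.38, 10.00 and 10.85 in TNE. TNE array 1 lay inside the TPIN range and TNE array 3 just below its lowest value. The difference was -0.63 (95% interval -1.60 to 0.34, limma adjusted p = 0.293), so the error spans both a larger fall and a small rise.

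Sprouty proteins are themselves induced by growth factors and block the step from receptor to RAS and RAF. Spry1 was at 9.73, 11.23 and 10.76 in TPIN and at 9.74, 8.14 and 8.18 in TNE. TNE array 1 and TPIN array 1 were level, at a distance of 0.01, while TNE arrays 2 and 3 lay well below the lowest TPIN array. The difference was -1.89 (SE 0.55, limma adjusted p = 0.0469), and the call was lost without TPIN array 2 or 3 or TNE array 2 or 3 (adjusted p = 0.0927 to 0.148) and with variances moderated robustly (adjusted p = 0.0502). Spry4 was at 10.42, 10.82 and 9.96 in TPIN and at 10.32, 8.96 and 8.48 in TNE. As for Spry1, TNE array 1 lay among the TPIN arrays and the other two below them all. The difference of -1.15 (SE 0.50) did not pass (limma adjusted p = 0.129), and without TNE array 1 it was -1.68 and passed (adjusted p = 0.0250). Spry2 was at 9.95, 10.24 and 10.78 in TPIN and at 10.26, 8.74 and 9.62 in TNE. TNE array 1 again lay within TPIN, and the difference of -0.79 (95% interval -1.79 to 0.22) did not pass (limma adjusted p = 0.214). Spry3, picked with its values known, had a difference of -1.40 (limma adjusted p = 0.0988). Its means of 7.01 in TPIN and 5.61 in TNE lay below 8.09, so the size of this difference is uncertain.

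Etv4 and Etv5 belong to the PEA3 group of ETS factors, which act downstream of FGF receptors in many epithelia. Etv4 was at 8.55, 9.12 and 8.73 in TPIN and at 8.59, 7.73 and 7.64 in TNE. TNE array 1 was within the TPIN range and the other two were below it. The difference was -0.82 (SE 0.35), with a limma adjusted p of 0.124. Its size is uncertain, as the TNE mean of Etv4 (7.99) lay below 8.09. Etv5 was at 9.01, 10.09 and 9.57 in TPIN and at 9.66, 8.06 and 9.79 in TNE. Both TNE arrays 1 and 3 lay within the TPIN range, and only TNE array 2 was below it. Its difference of -0.38 was the smallest of the 10 (95% interval -1.58 to 0.81, limma adjusted p = 0.598), and without TNE array 2 its sign turned, to 0.17. Etv1, the remaining gene of the group and chosen after its values were seen, was at 10.54, 10.30 and 9.67 in TPIN and at 9.08, 7.78 and 10.06 in TNE (difference -1.20, limma adjusted p = 0.155).

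**Figure D2:**
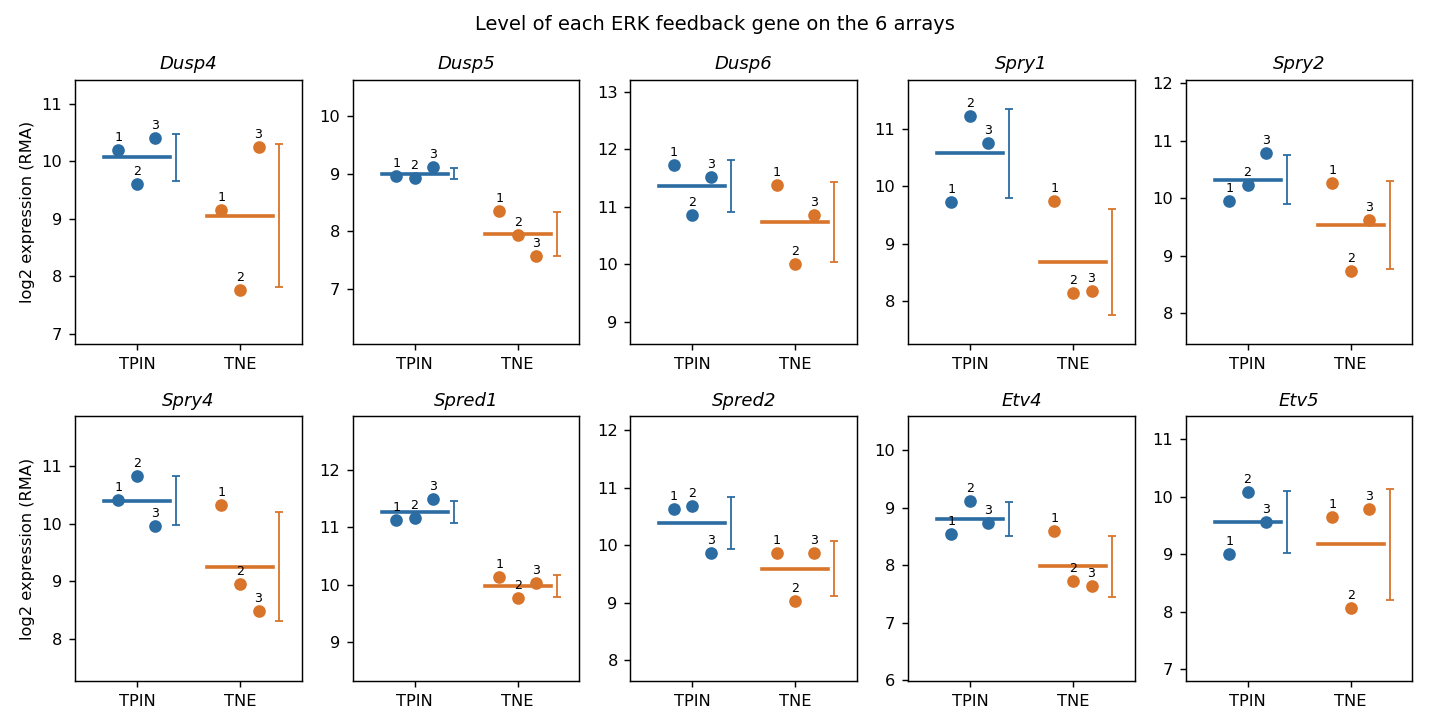
Log2 expression (RMA) of each feedback gene on the 3 TPIN (blue) and 3 TNE (orange) arrays; numbers are replicates, horizontal bars group means and vertical bars ± 1 SD, and every panel spans the same number of log2 units around its own centre. TNE array 2 lies below all TPIN arrays in each panel, and the groups are separate only for Dusp5 and Spred1.

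The 3 TNE arrays did not carry the lower levels equally. TNE array 2 lay below all 3 TPIN arrays for 10 of the 10 feedback genes, where it did so for 34.1% of all genes. For TNE array 3 the count was 7 of 10, against 39.7% of all genes, and for TNE array 1 it was 3 of 10 (Dusp4, Dusp5 and Spred1), against 29.5%. Within TNE, array 2 was the lowest for 7 of the 10 genes (22.9% of all genes) and array 1 the highest for 8 (38.3%). With each gene set to its own mean of the 6 arrays, the feedback genes averaged 0.34, 0.59 and 0.53 on TPIN arrays 1 to 3. On TNE arrays 1 to 3 they averaged 0.06, -1.07 and -0.46. The SD was larger in TNE than in TPIN for 9 of the 10, all but Spred1, against 44.6% of all genes, with medians of 0.73 and 0.43. No test was made of a single array.

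**Figure D3:**
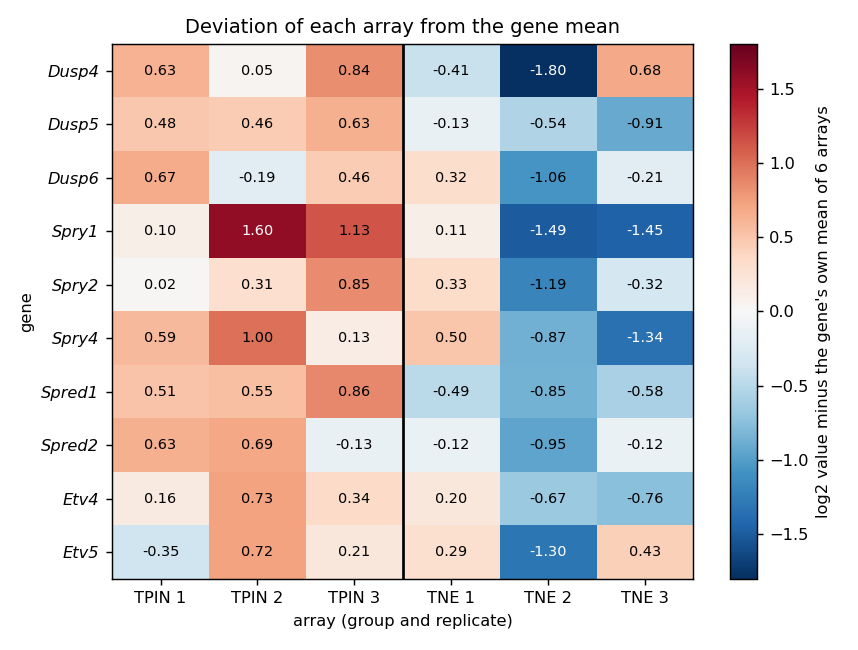
Each cell is the log2 value of 1 gene on 1 array minus that gene's mean of all 6 arrays, red above and blue below, with TPIN arrays left of the line and TNE arrays right of it. The column of TNE array 2 is blue throughout, least for Dusp5 (-0.54), and TNE array 1 lies between -0.49 and 0.50.

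Leaving TNE array 2 out made the difference smaller for each of the 10 genes, and the median fell in size from -0.91 to -0.60. The direction stayed negative for 10 of 10 genes without any other array and for 9 of 10 without this one. Across all genes the number past the threshold was 1941, and it was 832 without TNE array 2, 936 without TPIN array 1 and 1115 without TPIN array 2, so the loss of calls was not limited to the feedback genes. Weighting arrays by how well they fit their group (arrayWeights in limma, which gave TNE array 2 the highest weight, 3.26, and TPIN array 3 the lowest, 0.345) raised the count to 7 of 10, and 21.3% of all genes were then lower. Dusp4, Spry4, Spred2 and Etv4 were the genes gained. An exact two-sided permutation test of 3 against 3 arrays cannot go below p = 0.10. It gave that value for Spred1 and Dusp5 and 0.2 to 0.7 for the others.

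**Figure D4:**
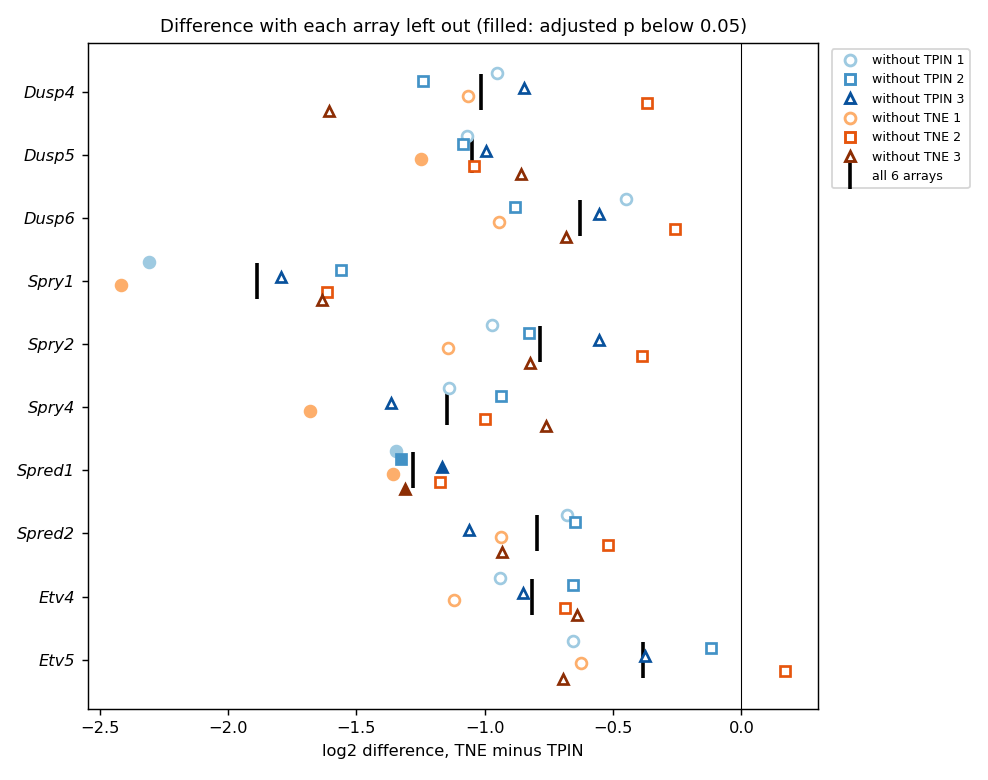
Log2 difference, TNE minus TPIN, of each feedback gene with all 6 arrays (black bar) and with 1 array left out (symbols, offset vertically); filled symbols passed an adjusted p of 0.05. Spred1 stays between -1.36 and -1.17, while Dusp4 runs from -1.61 to -0.37 and Etv5 reaches 0.17 without TNE array 2.

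Upstream of ERK, ligand and receptor genes were measured in the same cultures, all with added EGF and FGF2. Of 10 measured EGF and FGF family ligands 6 fell and none rose (median log2 difference -2.45). Ereg, Nrg1, Fgf10, Fgf2 and Fgf7 had the smallest p, with differences of -4.80, -4.05, -4.30, -3.59 and -3.93 (limma adjusted p = 0.000274 to 0.0303). Their TNE means, from 6.26 for Fgf10 to 7.80 for Fgf7, all lay below 8.09, so the sizes of their falls are uncertain. Fgf7 lost its call without any 1 of 4 arrays. Of 10 receptors and heparan sulfate co-receptors 4 fell and none rose (median -1.08). Egfr, the EGF receptor, was at 11.62, 11.54 and 11.87 in TPIN and at 7.25, 7.11 and 7.59 in TNE. That is a difference of -4.36 with no overlap, and the call was kept without any 1 array. The TNE mean of Egfr (7.32) lay below 8.09, so the size of its fall is uncertain. Fgfr1, a main receptor of FGF2, was at 12.21, 11.95 and 11.56 in TPIN and at 11.15, 8.52 and 8.42 in TNE. As for 8 of the 10 feedback genes and 38.3% of all genes, TNE array 1 was the highest of the TNE arrays here, though below all TPIN arrays. The difference of Fgfr1 was -2.54 (limma adjusted p = 0.0395), a call lost without any 1 array but TNE array 1. Erbb2 (-1.42) passed too but not without TPIN array 1, TNE array 2 or TNE array 3, and the syndecan Sdc2 (-2.18) passed but not without TPIN array 1, TPIN array 3, TNE array 2 or TNE array 3. Sdc4 (-1.32, limma adjusted p = 0.0763) did not pass. The TNE mean of Erbb2 (7.92) lay below 8.09 as well. The receptor count was 1 without TPIN array 1, TNE array 2 or TNE array 3 and 2 without TPIN array 3.

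The cascade list runs from the adaptors at the receptor to the MEK genes and also holds Rps6ka3, Rps6ka6 and Mknk2, kinases that act downstream of ERK. The classical RAS, RAF and ERK genes were not analysed here. Of 19 measured genes 2 fell, 1 rose and 16 did not pass (median log2 difference -0.14). Rras, a RAS relative, had a difference of -2.65, and its call was lost without TPIN array 1, TPIN array 2 or TNE array 2. The adaptor Shc1 had one of -1.55 (limma adjusted p = 0.0460), and its call was lost without any 1 array but TNE array 1. The gene that rose, Rps6ka6, encodes one of the downstream kinases, of the RSK family, and was dim: its means of 5.76 in TPIN and 7.94 in TNE both lay in the lowest 25% of gene means, below 8.09. Its fitted ratio was 4.53-fold, whose size is uncertain at such levels, and the gene is not among those tested when dim rows are left out. The scaffold gene Iqgap1 had a difference of -0.62 (limma adjusted p = 0.215). Map2k1, one of the MEK genes and chosen after its values were seen, differed by -0.01 (SE 0.32). The count was 1 without TPIN array 1, TPIN array 2 or TNE array 2.

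Immediate early genes, the first transcripts that ERK and related kinases induce, were the next list. Of 25 measured 7 fell and none rose, with a median difference of -1.20, and TNE lay fully below TPIN for 13, where 20.5% of all genes and 2 of the 10 feedback genes did so. Fos was at 10.40, 10.22 and 11.51 in TPIN and at 8.22, 8.26 and 7.92 in TNE, a difference of -2.58 with no overlap (limma adjusted p = 0.00493). Egr2 (-4.15), Fosb (-3.17), Zfp36 (-2.47) and Nr4a2 (-1.82) passed as well and kept their calls without any 1 array, as Fos did. The TNE means of Egr2 (7.03), Fosb (7.79), Zfp36 (7.96) and Nr4a2 (8.04) lay below 8.09, so the sizes of their falls are uncertain. Egr1 had a difference of -2.58 and lost its call without TPIN array 1, TPIN array 2 or TNE array 2, and Jun (-0.84, limma adjusted p = 0.134) did not pass. Whether the 2 lists differ was not tested. The order of the TNE arrays was another one: centred on each gene's mean, the early genes averaged -0.24, -0.58 and -1.21 on TNE arrays 1 to 3, lowest on array 3, where the feedback genes were lowest on array 2.

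Of 19 other genes that ERK is known to raise 4 fell and none rose (median -1.26): Tnc, the gene in the series title (-6.13), Emp1 (4.93-fold lower), the matrix metalloproteinase Mmp3 (-3.43) and the kinase Plk3 (-1.22). The calls of Mmp3 and Plk3 were lost without any 1 array but TNE array 1. That count was 2 without TPIN array 2, TNE array 2 or TNE array 3, and 9 without TNE array 1. Their centred means on TNE arrays 1 to 3 were 0.29, -0.71 and -1.52, again lowest on array 3. Of 25 other negative regulators of the RAS to ERK chain 6 fell and none rose (median -0.42). Dab2, an endocytic adaptor, Cblb, a ubiquitin ligase for receptors, Errfi1, an inhibitor of the EGF receptor, and Rasa1, a RAS-GTPase activator, had differences of -4.71, -2.18, -2.11 and -1.71, and all kept their calls without any 1 array. The TNE means of Tnc (6.55) and Dab2 (6.63) lay below 8.09, so the sizes of their falls are uncertain. Lrig3 (-1.76) did not keep its call, and its TNE mean (7.53) lay below 8.09 too. Of 12 other dual-specificity phosphatases 1 fell, Dusp1, at 11.71, 11.55 and 11.72 in TPIN and at 10.61, 9.69 and 10.20 in TNE (difference -1.50, limma adjusted p = 0.0153). Dusp1, which acts on p38 and JNK as well as ERK, lost its call without TPIN array 1 or TNE array 2. The phosphatase count was 2 without TPIN array 3 or TNE array 1. Dusp7, a cytoplasmic relative of Dusp6, had a difference of -1.24 and did not pass (limma adjusted p = 0.128). Over all genes 10.2% were lower. The shares lower were 60% of ligands, 40% of receptors, 28% of early genes and 24% of negative regulators. For the other ERK-raised genes, the cascade and the other phosphatases they were 21.1%, 10.5% and 8.33%. All these lists were chosen with earlier results of these data known, so a share above that of all genes is not independent support.

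**Figure D5:**
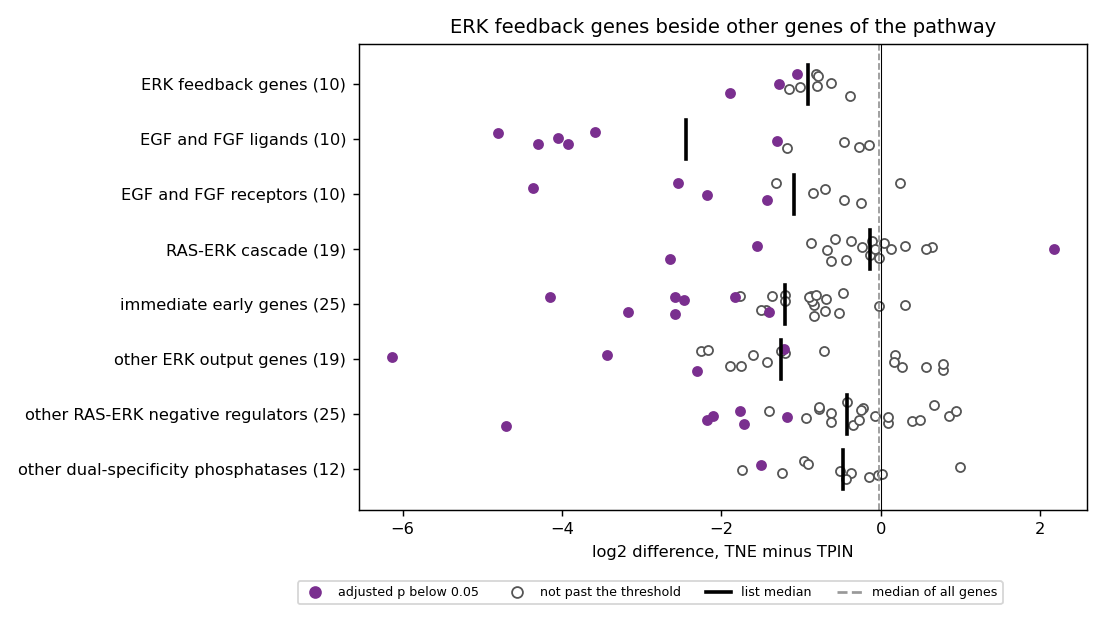
Log2 difference, TNE minus TPIN, of every measured gene in 8 lists of the pathway (number of genes in brackets); filled points passed an adjusted p of 0.05, black bars are list medians and the dashed line the median of all genes. The feedback genes lie within -1.89 to -0.38, while Ereg among ligands, Egfr among receptors and Egr2 among early genes lie at -4.80, -4.36 and -4.15. The TNE means of Ereg, Egfr and Egr2 lay below 8.09, so the sizes of their falls are uncertain.

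Markers of other cell types moved with the groups. Of 16 measured fibroblast and smooth muscle markers 12 fell in TNE and none rose. Their mean was 11.37 to 11.57 on the TPIN arrays and 7.56 to 8.69 on the TNE arrays, led by Pdgfrb, Dcn and Lum with differences of -4.41, -2.82 and -6.81. The TNE means of Pdgfrb (7.89) and Lum (5.76) lay below 8.09, so the sizes of their falls are uncertain. The lowest TNE mean of the fibroblast and smooth muscle list was on array 2, as for the feedback genes, and its highest on array 3. Of 13 proliferation markers 10 rose, with means of 8.69, 10.27 and 8.16 on TPIN arrays 1 to 3 and 11.38 to 11.78 in TNE. By the same rule 10.2% of all genes were lower in TNE and 10.3% higher. Of 4 measured endothelial markers Cdh5 rose and Eng fell, and none of 3 leukocyte markers passed. The leukocyte mean was 8.32 on TNE array 3, against 6.78 and 6.32 on TNE arrays 1 and 2 and 6.30 to 6.91 on the TPIN arrays. No background level comes with the table, so no marker can be called absent. In samples of whole cultures, fewer cells that express a gene and less RNA per cell cannot be told apart. The part of these markers in the lower feedback genes was not tested.

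Genes whose pattern over the 6 arrays was most like that of a feedback gene were found by the root mean square difference of log2 values, each gene set to its own mean. Etv4 had the closest partner, Psmb10 (0.04), followed by Dusp5 with Colgalt1 (0.06) and Spred1 with Shroom4 (0.08). Spry4 came nearest to Tcirg1 (0.11), Spred2 to Asap3 (0.13), Spry2 to Ngly1 (0.19), Dusp6 to Ccdc3 (0.19) and Spry1 to Trim12c (0.23). The least matched were Etv5, with Zfp455 (0.27), and Dusp4, with Nrp1 (0.35). Values were centred but not scaled, so genes that vary more over the arrays tend to have larger distances. Among the feedback genes themselves Dusp5 and Spred1 were the closest pair (0.26) and Dusp4 and Spry1 the farthest (1.13).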

How the data were processed

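RNA from 6 samples was measured on 1-colour arrays with biotin-labelled, fragmented cDNA (labels' protocols). The values used are the authors' deposited log2 levels in 10361 rows, and the submitters' processing notes name RMA. RMA narrows differences near background, no detection call comes with the values, and the selection of rows is not stated in the labels. Their number limits the precision. Rows with 1 symbol were used, and the row of highest mean for a gene with several. Groups were taken from the titles. Replicates were numbered in accession order. At most 0.106% of rows agreed exactly in any pair of arrays.

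Fits used limma 3.58.1 (R 4.3.3, mean per group, TNE minus TPIN, two-sided, Benjamini-Hochberg over 9490 genes, threshold 0.05), after the script was tested on simulated data. Intervals are 95%. The feedback genes and all lists were chosen with earlier results of these data known. Named were every feedback gene, up to 5 genes of smallest p past the threshold and the 2 of highest mean per list, up to 3 per marker list, and the nearest genes by pattern. Alternatives were other scalings, row filters, variance models, array weights and leaving out each array. Promoter sequences came from RefSeq (GRCm38.p6).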

Additional observations from a re-analysis of the deposited data

How the results depend on the processing

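The feedback genes kept their negative median under all alternatives (-1.19 with array weights to -0.60 without TNE array 2), and Spred1 and Dusp5 passed in all 8 other limma fits that kept every array, while the exact test cannot pass. Spry1 missed with robust moderation. With 1 array left out, Etv5 ran from -0.69 without TNE array 3 to 0.17 without TNE array 2, and with array weights it was -1.095. The causes were not tested. With array weights, 4267 genes passed in all, and the number passing was 7 for feedback genes, 6 for the cascade, 14 for early genes, 10 for other ERK-raised genes, 12 for negative regulators (median -0.61) and 4 for other phosphatases. The phosphatase count was 2 with quantile normalization, with equal array medians or without dim rows, and the ligand median was -3.93 without dim rows, where fewer ligands were left. With 1 array left out, counts were 832 to 2596 for all genes, 0 to 4 for feedback genes, 1 to 5 for receptors, 1 to 4 for the cascade, 2 to 9 for other ERK-raised genes and 0 to 2 for other phosphatases, and medians were -2.60 to -2.10 for ligands, -2.20 to -0.98 for other ERK-raised genes and -0.65 to -0.26 for negative regulators. No paired analysis was possible because the labels give no pairing of TPIN with TNE samples. The 3 arrays a group and the lack of a background measure limit what low levels can show.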
